A study of Mus musculus with 30 samples.

Results

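The mitochondrial ribosomal protein genes were examined in mouse blood stem and progenitor cells that had lost Mettl3, the catalytic subunit of the enzyme that writes m6A on RNA. They were taken by name, as the symbols that start Mrpl or Mrps followed by digits and an optional letter, without pseudogene names. This gave the same 77 genes in both deposited tables, of 24063 genes in the bulk table and 27933 genes in the single-cell table. Of the 77, 48 are named Mrpl and 29 are named Mrps.

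Mettl3KO mice carried Mx1-Cre; Mettl3 fl/fl, and WT mice carried Mettl3 fl/fl without the Cre. Both received pIpC, a double-stranded RNA mimic that induces interferon and so drives the Mx1 promoter, and bone marrow was taken 3 weeks later. Bulk RNA-seq covered 4 sorted populations of Lin-Sca1+c-Kit+ cells. The HSC gate was CD150+CD48-. MPP2 cells carried both markers (CD150+CD48+), MPP1 cells neither (CD150-CD48-), and the MPP4 gate was CD150-CD48+. Droplet single-cell RNA-seq covered LK cells, sorted as lineage-negative and c-Kit-positive with no Sca1 gate named. Each genotype had 3 libraries in each population, from different mice per the labels, giving 24 bulk and 6 single-cell libraries. Whether 1 mouse gave several populations is not stated. Mx1-Cre acts in many cell types and not only in stem cells, and the WT mice lacked the Cre as well as the deletion, so the effect of Cre itself and that of Mettl3 loss cannot be told apart.

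Mitochondria translate the few proteins encoded by their own DNA, all of them parts of the respiratory chain or the ATP synthase. Their ribosome has a small subunit, which reads the mRNA, and a large subunit, which joins the amino acids. All of its proteins are encoded in the nucleus and imported. Many have a counterpart in bacterial ribosomes, and others were added in the mitochondrial lineage. Resting blood stem cells are known for low protein synthesis and low reliance on respiration, both of which increase as cells enter the progenitor stages.

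By the roles assigned here, 29 of the 77 genes encode large-subunit proteins with a bacterial counterpart and 21 encode large-subunit proteins without one. The placement of Mrpl47 among the 21 is open to question, and moving it would change these class sizes. Another 16 encode small-subunit proteins with a bacterial counterpart and 10 encode small-subunit proteins without one. Some names mislead. Mrps18a and Mrps30 were named as small-subunit genes but their proteins sit in the large subunit. Mrps36 encodes a protein now known as part of the oxoglutarate dehydrogenase complex and was kept only for its name.

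The sequence just before the start site was compared because members that move together could share motifs there. Start windows of 300 bases, 250 before and 50 after the start, were found for 68 of the 77 genes in RefSeq annotation of GRCm38, and for 27025 genes in all. The ETS motif CCGGAAGT, read on both strands, was present in 12 of the 68 windows (17.6%), against 4.31% of all windows. The NRF1 motif GCGCANGCG was present in 16 of the 68 (23.5%), against 7.03% of all windows, and the YY1 motif AAGATGGCG in 8 (11.8%), against 1.64%. The E-box CACGTG was found in 5 of the 68 windows (7.35%), against 8.09% of all, and the cyclic-AMP element TGACGTCA in 2 (2.94%), against 2.03%. These matches are letters in a window and say nothing about binding. Shares are by gene, counted once if any of its windows matched. All members were expressed, whereas the 27025 genes include many that were not tested here. Shares over expressed coding genes alone were not computed, so an excess need not be particular to the members. The 4 sequences below run 5′ to 3′ on the gene's strand, hold no annotated exon and have the motif in capitals. Distances are counted to the start of the window's RefSeq annotation. The prints of Mrpl16 and Mrpl12 begin 250 bases before it and hold 226 bases, so they end short of it. They were chosen to show 1 example of each of 4 motifs among genes named in the results.
Mrpl16 (chr19:11770165-11770390, plus strand, cyclic-AMP element whose first base lies 49 before the start): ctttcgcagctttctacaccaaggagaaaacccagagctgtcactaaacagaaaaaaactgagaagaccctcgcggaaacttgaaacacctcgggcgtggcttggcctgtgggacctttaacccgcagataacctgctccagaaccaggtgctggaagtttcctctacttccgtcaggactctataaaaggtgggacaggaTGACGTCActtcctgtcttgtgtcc
Mrpl43 (chr19:45006443-45006557, minus strand, ETS motif whose first base lies 12 before the start): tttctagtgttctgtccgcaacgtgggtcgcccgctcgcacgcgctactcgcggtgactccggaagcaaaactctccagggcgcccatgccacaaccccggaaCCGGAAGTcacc
Mrpl12 (chr11:120484387-120484612, plus strand, NRF1 motif in its reverse reading, first base 80 before the start): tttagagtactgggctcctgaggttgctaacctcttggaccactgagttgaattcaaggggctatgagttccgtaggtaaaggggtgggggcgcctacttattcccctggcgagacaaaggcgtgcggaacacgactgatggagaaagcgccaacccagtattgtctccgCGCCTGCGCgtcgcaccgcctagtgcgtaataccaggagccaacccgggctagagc
Mrpl20 (chr4:155802628-155802877, plus strand, E-box whose first base lies 33 before the start): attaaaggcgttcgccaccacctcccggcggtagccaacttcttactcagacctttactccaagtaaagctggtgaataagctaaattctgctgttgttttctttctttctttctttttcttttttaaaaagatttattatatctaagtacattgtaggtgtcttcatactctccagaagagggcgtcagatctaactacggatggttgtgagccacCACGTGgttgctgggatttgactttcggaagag
None of the searched letters was found in the windows of Mrpl46, Mrps12, Mrps2 and Mrps7. The genes are also compact. Their longest principal transcripts had a median of 1288 bases and 5 exons, against 2915 bases and 9 exons over the 13787 tested coding genes. The letters GGACT, a common core of sites that Mettl3 methylates, had a median density of 1.005 per kilobase of transcript in the members and 1.065 per kilobase in all tested coding genes. Mrpl16, which had the smallest adjusted p of all members in HSC, had 0 GGACT in its principal transcript of 1162 bases. Mrps34 had 3 in its principal transcript of 918 bases. The longest annotated transcripts of these genes have 2981 and 1884 bases and were not searched.

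The bulk libraries held 28896498 to 55276836 counts, and the lowest count of any member in any library was 142. All 77 members passed the filter on low counts in the bulk data. Levels below are in CPM, which divide a gene's reads by the library total after TMM adjustment. Changes are log2 fold changes ± standard error from edgeR's quasi-likelihood test over the 15545 genes tested, and "called" means a Benjamini-Hochberg adjusted p under 0.05 over all of them. The test itself gives no standard error. The one printed is the absolute log2 change divided by the square root of the test's F statistic. With 3 libraries a group, an exact permutation test of a single value cannot go below p = 0.1. In bulk samples, fewer cells of a type and less RNA per cell cannot be told apart.

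Mettl3 itself had 14.4, 17.2 and 11.6 CPM in the Mettl3KO HSC libraries, against 36.5, 31.5 and 42.5 CPM in the WT HSC libraries. In LK cells it had 10.6, 12.5 and 13.1 CPM in Mettl3KO libraries, against 19.7, 22.3 and 18.9 CPM in WT libraries. Transcript counts do not show how many cells lost the deleted exon. Across populations, Cd48 and Slamf1, the gene of CD150, followed the gates. Cd48 averaged 10.6 and 7.47 CPM in Mettl3KO and WT HSC, and 214 and 153 CPM in Mettl3KO and WT MPP2. Slamf1 differed between genotypes within the CD150+ gates, with no overlap. It averaged 54.1 CPM (49.8 to 62.6) in Mettl3KO HSC, against 24.3 CPM (15.6 to 38.3) in WT HSC. In MPP2 it averaged 32.7 CPM (20.7 to 44.6) in Mettl3KO, against 9.6 CPM (5.0 to 16.7) in WT. The part of this difference in the results below was not tested. The 10 HSC and MPP markers summed to 4274 to 5586 CPM in Mettl3KO HSC, against 4385 to 4983 CPM in WT HSC, with none at 0.

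Some libraries stood apart. WT HSC replicate 2 had the lowest share of member counts of all 24, and MPP1 Mettl3KO replicate 3 the lowest of the Mettl3KO libraries. These 2 libraries were also the lowest of all 24 in cytosolic ribosomal protein genes, at 0.943% and 0.794%. For respiratory chain genes they had 0.657% and 0.555%, again the lowest. The ribosomal RNA gene Rn45s took 5.49%, 5.12% and 5.496% of counts in Mettl3KO replicate 2 of HSC, MPP1 and MPP2. All WT libraries had 1.65% to 3.61%, and MPP4 Mettl3KO replicate 2 lay within that range. The part of these shares in the results below was not tested. In MPP1 Mettl3KO replicate 2, 8 neutrophil markers summed to 59803 CPM, against at most 4209 CPM in any WT MPP1 library. Of 16 marker lists, the summed CPM, here of the unadjusted library total, did not overlap between genotypes for 5 in HSC, 4 in MPP1, 4 in MPP2 and 5 in MPP4. In HSC the 14 erythroid markers summed to 705 to 902 CPM in Mettl3KO libraries, against 1224 to 1629 CPM in WT libraries, with none at 0. The 8 dendritic markers summed to 135 to 306 CPM in Mettl3KO HSC, against 682 to 1027 CPM in WT HSC, with none at 0 in the Mettl3KO group and 1 at 0 in the WT group. The 7 lymphoid-primed markers summed to 73.8 to 106 CPM in Mettl3KO HSC, against 216 to 593 CPM in WT HSC, with none at 0 in the Mettl3KO group and 1 in the WT group. The 7 T and NK cell markers (35.8 to 64.7 CPM in Mettl3KO HSC, against 83.2 to 106 CPM in WT HSC, 2 at 0 in each group) and 4 stroma markers (1.09 to 5.22 CPM, against 10.9 to 28.6 CPM, 1 at 0 in the Mettl3KO group) were lower as well. In MPP1, 10 B cell markers summed to 148 to 180 CPM in Mettl3KO libraries, against 44.5 to 54.7 CPM in WT libraries, with none at 0. The erythroid markers were lower there, at 405 to 887.8 CPM in Mettl3KO MPP1, against 1301 to 2201 CPM in WT MPP1, as were the lymphoid-primed markers, at 322 to 497 CPM in Mettl3KO MPP1, against 820 to 999.9 CPM in WT MPP1, with none at 0. The dendritic markers summed to 458 to 607 CPM in Mettl3KO MPP1, with 1 at 0, against 717 to 1032 CPM in WT MPP1. In MPP2 no listed marker was at 0 in either genotype in the lists that did not overlap. There the erythroid markers summed to 611 to 805 CPM in Mettl3KO libraries, against 1233 to 1565 CPM in WT libraries, and the lymphoid-primed markers to 423 to 591 CPM in Mettl3KO libraries, against 1203 to 1664 CPM in WT libraries. The T and NK cell markers summed to 143 to 302 CPM in Mettl3KO MPP2, against 347 to 374 CPM in WT MPP2, and the B cell markers to 317 to 394 CPM in Mettl3KO MPP2, against 229.9 to 245 CPM in WT MPP2. In MPP4, also with none at 0, the B cell markers summed to 2064 to 4639 CPM in Mettl3KO libraries, against 658 to 1168 CPM in WT libraries, and the erythroid markers to 272 to 320.4 CPM in Mettl3KO libraries, against 695 to 771 CPM in WT libraries. The dendritic markers (2678 to 2933 CPM in Mettl3KO MPP4, against 3545 to 7345 CPM in WT MPP4), the HSC and MPP markers (1431 to 1709 CPM, against 1979 to 3088 CPM) and 6 endothelium markers (469 to 610.1 CPM, against 671 to 790.1 CPM) were lower in Mettl3KO MPP4. The part of these markers in the results below was not tested.

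Per kilobase of each gene's longest annotated transcript, the members spanned 2.66 to 309 CPM per kilobase in Mettl3KO HSC, with a median of 29.98. In WT HSC they spanned 2.41 to 166, with a median of 21.2. The highest levels in both were those of Mrps23, Mrpl34 and Mrpl36. The lowest level in both was that of Mrpl23, whose longest transcript has 3715 bases and whose principal transcript has 692. The order of genes thus depends on the transcript taken. In Mettl3KO cells the median level over the 77 genes was lowest in MPP1, at 21.9 CPM per kilobase, followed by HSC with 29.98, MPP2 with 37.6 and MPP4 with 39.1. In WT cells the order was different, with HSC lowest at 21.2, then MPP1 at 27.5, MPP2 at 28.7 and MPP4 at 36.7.

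The 77 genes were also summed as a share of each library's counts. In HSC they took 0.401%, 0.617% and 0.596% of the counts in Mettl3KO libraries, against 0.399%, 0.262% and 0.411% in WT libraries. The ranges overlapped, because Mettl3KO replicate 1 lay between the highest WT libraries. In MPP2 the shares were 0.688%, 0.630% and 0.519% in Mettl3KO libraries, against 0.462%, 0.453% and 0.419% in WT libraries, with no overlap. In MPP1 they were 0.432%, 0.427% and 0.286% in Mettl3KO libraries, against 0.464%, 0.405% and 0.387% in WT libraries. In MPP4 they were 0.567%, 0.483% and 0.508% in Mettl3KO libraries, against 0.566%, 0.488% and 0.492% in WT libraries. The groups overlapped in MPP1 and MPP4.

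**Figure D1:**
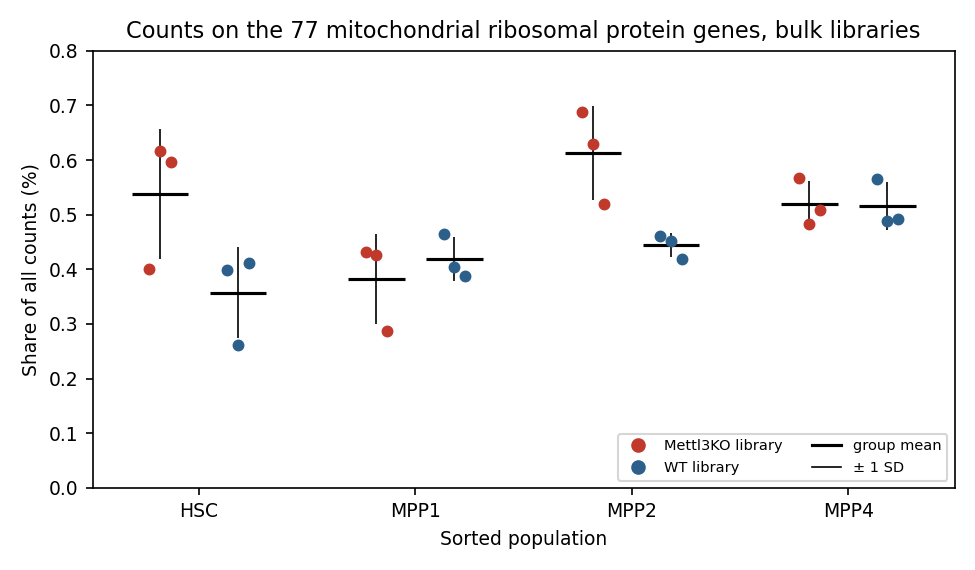
Share of all counts (%, y axis) taken by the 77 mitochondrial ribosomal protein genes in each bulk library, with Mettl3KO (red) left of WT (blue) in each sorted population; points are libraries. In HSC the Mettl3KO libraries lie between 0.401% and 0.617% and the WT libraries between 0.262% and 0.411%, and only in MPP2 do the groups not overlap in favour of Mettl3KO.

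Loss of Mettl3 in HSC was accompanied by higher levels of a subset of these genes. Of the 77, 15 were called higher and 0 lower in Mettl3KO HSC, against 3.66% of all genes called higher and 2.49% called lower. Over the members the median log2 change was 0.46, against 0.00 over all genes, and 69 of the 77 had a positive sign. At an unadjusted p under 0.05, 33 were higher and 0 lower. For 16 members the 3 Mettl3KO libraries all lay above the 3 WT libraries, against 12.1% of all genes. No member lay wholly below, against 12% of all genes.

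The called genes came from both subunits. They were 6 of 29 large-subunit genes with a bacterial counterpart, 4 of 21 without one, 3 of 16 small-subunit genes with a bacterial counterpart and 2 of 10 without one. The median log2 changes of these classes were 0.54, 0.52, 0.45 and 0.39. The difference between the classes was not tested.

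Mrpl16 encodes a large-subunit protein with a bacterial counterpart that lies near the tRNA sites. It had 72.9, 107 and 119 CPM in Mettl3KO HSC, against 35.9, 22.9 and 36.1 CPM in WT HSC. All Mettl3KO libraries were above all WT libraries, and the log2 change was 1.66 ± 0.20 (adjusted p = 4.6e-05). Mrpl19, another large-subunit protein with a bacterial counterpart, had 71.4, 107 and 100 CPM in Mettl3KO HSC, against 38.7, 39.0 and 50.2 CPM in WT HSC. Its log2 change was 1.13 ± 0.19 (adjusted p = 0.0012), again with no overlap. Mrpl15, also of the large subunit and shared with bacteria, had 133, 189 and 170 CPM in Mettl3KO HSC, against 106, 71.7 and 105 CPM in WT HSC. The log2 change was 0.80 ± 0.17 (adjusted p = 0.0069).

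Mrpl43 and Mrpl46 encode large-subunit proteins with no bacterial counterpart. Mrpl43 had 114, 196 and 181 CPM in Mettl3KO HSC, against 54.6, 29.1 and 62.5 CPM in WT HSC, and its log2 change of 1.75 ± 0.28 was the highest of the 77 (adjusted p = 0.00062). Mrpl46 had 57.8, 86.0 and 87.2 CPM in Mettl3KO HSC, against 29.2, 17.0 and 27.9 CPM in WT HSC, a log2 change of 1.64 ± 0.28 (adjusted p = 0.0011). Neither gene's groups overlapped.

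In the small subunit, Mrps34, a protein without a bacterial counterpart whose loss destabilises the small subunit in human patients, had 102, 148 and 164 CPM in Mettl3KO HSC, against 47.0, 33.9 and 49.0 CPM in WT HSC. The log2 change was 1.67 ± 0.22 (adjusted p = 0.00012). Mrps7 has a bacterial counterpart at the site where mRNA and tRNA leave. It had 79.9, 120 and 121 CPM in Mettl3KO HSC, against 57.4, 38.0 and 57.8 CPM in WT HSC (log2 change 1.07 ± 0.19, adjusted p = 0.0015). Mrps2, also shared with bacteria, had 205, 152 and 169 CPM in Mettl3KO HSC, against 91.1, 91.2 and 97.0 CPM in WT HSC (log2 change 0.91 ± 0.19, adjusted p = 0.0064). Its highest value came from Mettl3KO replicate 1, the library in which the other genes described here were lowest among the Mettl3KO libraries.

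Mrpl12 forms the flexible stalk that recruits translation factors. It had 66.2, 124 and 113 CPM in Mettl3KO HSC, against 63.2, 30.6 and 58.4 CPM in WT HSC, and its log2 change was 0.99 ± 0.25 (adjusted p = 0.021). Mrps12, part of the decoding centre, had 50.0, 107 and 103 CPM in Mettl3KO HSC, against 42.3, 26.3 and 51.7 CPM in WT HSC (log2 change 1.11 ± 0.30, adjusted p = 0.031). Its groups overlapped, because Mettl3KO replicate 1 fell within the WT range. The other 5 genes called were Mrpl14, Mrps23, Mrpl51, Mrpl44 and Mrpl20, with log2 changes of 0.57 to 1.41.

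Genes of other central sites were not called. Mrpl3, near the site of peptide bond formation, had a log2 change of 0.37 ± 0.19 (adjusted p = 0.27). Mrpl11, at the base of the stalk, had 0.67 ± 0.24 (adjusted p = 0.11). In the Mrps18 family, 0.83 ± 0.27 was measured for Mrps18a of the large subunit (adjusted p = 0.071), 0.38 ± 0.26 for Mrps18b (adjusted p = 0.44) and 0.15 ± 0.37 for Mrps18c (adjusted p = 0.88). Mrps35, of the small subunit, had 0.28 ± 0.29 (adjusted p = 0.65), and Mrps36 had 0.19 ± 0.32 (adjusted p = 0.81). The lowest log2 changes were −0.25 for Mrpl1 and −0.22 for Mrps22, neither of them called.

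The HSC count depended on single libraries. It was 25 without Mettl3KO replicate 1, 8 without Mettl3KO replicate 2, 8 without Mettl3KO replicate 3 and 8 without WT replicate 2, and it was 6 when the 6 HSC libraries were fitted alone. The calls of Mrpl12 and Mrps12 were lost when either Mettl3KO replicate 2, Mettl3KO replicate 3 or WT replicate 2 was left out, and that of Mrps12 also without WT replicate 1.

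Some of these genes share exon bases with a gene on the opposite strand, and no source used here says whether reads were counted by strand. Of the 77, 32 overlap an exon of another gene, 25 of them mainly on the opposite strand. Mrpl43 (chr19:45004829-45006442) shares 507 bases with Twnk, listed as Peo1. Mrps34 (chr17:24895116-24897502) shares 1309 bases with Mapk8ip3, Mrpl19 (chr6:81957851-81965958) 1962 with Gcfc2, and Mrpl46 (chr7:78775236-78783531) 173 with the member Mrps11. In HSC the log2 changes of these partners were −0.08 ± 0.23 for Peo1 (adjusted p = 0.90), 0.70 ± 0.37 for Mapk8ip3 (adjusted p = 0.29), 0.45 ± 0.29 for Gcfc2 (adjusted p = 0.41) and 0.47 ± 0.27 for Mrps11 (adjusted p = 0.34). None of these partners was called. Mrps34 overlaps 2 genes in all, of which Mapk8ip3 shares the most bases, and the change of the other is not given here. Reads from the shared bases cannot be told apart. Mrpl16 (chr19:11770391-11774960) overlaps no other annotated exon.

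Other genes of mitochondrial translation were examined beside the members. Among 6 tested ribosome subunits with other names, Gadd45gip1, a large-subunit protein, was called higher with a log2 change of 1.15 ± 0.25 (adjusted p = 0.0070). Among 12 translation factors, Tsfm, an elongation factor, was called higher (0.89 ± 0.19, adjusted p = 0.0078). Of 23 assembly and rRNA modification genes, 3 were called higher and 2 lower. The higher ones were Ddx28, an RNA helicase of large-subunit assembly (1.78 ± 0.21, adjusted p = 4.0e-05), C1qbp, a matrix protein needed for mitochondrial translation (0.78 ± 0.18, adjusted p = 0.012), and Ngrn (0.91 ± 0.24, adjusted p = 0.029). The lower ones included Mrm1, an rRNA methyltransferase (−0.81 ± 0.23, adjusted p = 0.035). Of 19 mitochondrial aminoacyl-tRNA synthetases only Pars2 was called (1.17 ± 0.31, adjusted p = 0.027). None of 11 genes of mitochondrial DNA transcription and RNA processing, and none of 9 regulators of mitochondrial genes, was called.

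For comparison, 0 of 77 tested cytosolic ribosomal protein genes were called in HSC, with a median log2 change of 0.41, and 1 of 82 nuclear genes of the respiratory chain was called higher, with a median of 0.32. The median of the cytosolic genes was thus close to the 0.46 of the mitochondrial ones, and the difference between these lists was not tested.

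In MPP2, 5 members were called higher and 0 lower, against 1.51% of all genes called higher and 0.965% called lower. Their median log2 change was 0.37, against −0.02 over all genes, and 71 of the 77 were positive. The Mettl3KO libraries lay wholly above the WT libraries for 30 members, against 13% of all genes, and wholly below for 2, against 13.6%. At an unadjusted p under 0.05, 21 were higher and 0 lower. All 5 called genes were also among the 15 of HSC, which is 33.3% of the HSC calls.

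Mrpl16 had 136, 131 and 101 CPM in Mettl3KO MPP2, against 54.2, 48.2 and 43.3 CPM in WT MPP2 (log2 change 1.34 ± 0.20, adjusted p = 0.0013). Mrps34 had 186, 131 and 124 CPM in Mettl3KO MPP2, against 59.6, 62.9 and 51.8 CPM in WT MPP2 (1.34 ± 0.22, adjusted p = 0.0026). Mrpl43 had 204, 163 and 129 CPM in Mettl3KO MPP2, against 64.2, 61.0 and 61.0 CPM in WT MPP2 (1.41 ± 0.28, adjusted p = 0.0085). For all 3 genes every Mettl3KO library was well above every WT library. Mrpl46 had 115, 85.1 and 70.3 CPM in Mettl3KO MPP2, against 38.7, 36.2 and 28.96 CPM in WT MPP2 (1.38 ± 0.28, adjusted p = 0.0098). Mrpl19 had 102, 101 and 80.9 CPM in Mettl3KO MPP2, against 58.7, 53.1 and 51.2 CPM in WT MPP2 (0.80 ± 0.19, adjusted p = 0.029). Their groups did not overlap either.

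Among the other genes followed in every comparison, Mrpl12 had a log2 change of 0.69 ± 0.25 in MPP2 (adjusted p = 0.16) and Mrps12 of 0.80 ± 0.30 (adjusted p = 0.17). Mrpl3, Mrpl11, Mrps18a, Mrps18b, Mrps18c, Mrps35 and Mrps36 had log2 changes between 0.03 and 0.46 and were not called. The assembly factors Ddx28 (1.13 ± 0.21, adjusted p = 0.0056) and Mterf4 (0.95, adjusted p = 0.028), which acts with a methyltransferase in large-subunit assembly, were called higher. No translation factor, synthetase or other ribosome subunit was called. Without Mettl3KO replicate 1 the count of called members was 2, and without WT replicate 3 it was 3.

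In MPP1, 3 members were called higher and 0 lower, against 4.74% of all genes called higher and 3.89% called lower, so the share of members was near that of all genes. The median log2 change was −0.14 over the members and 0.01 over all genes, with 27 positive and 50 negative. At an unadjusted p under 0.05, 7 were higher and 7 lower. The Mettl3KO libraries lay wholly above for 4 members, against 10.1% of all genes, and wholly below for 6, against 12.2%. The 3 called genes were among those of HSC and MPP2.

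Mrpl43 had 153, 173 and 80.6 CPM in Mettl3KO MPP1, against 61.9, 56.7 and 62.9 CPM in WT MPP1 (log2 change 1.17 ± 0.28, adjusted p = 0.014). Mrps34 had 125, 114 and 73.5 CPM in Mettl3KO MPP1, against 63.3, 49.9 and 53.7 CPM in WT MPP1 (0.90 ± 0.22, adjusted p = 0.015). Mrpl19 had 73.4, 109 and 65.6 CPM in Mettl3KO MPP1, against 48.4, 42.3 and 44.4 CPM in WT MPP1 (0.88 ± 0.19, adjusted p = 0.0083). The groups did not overlap for these 3, and Mettl3KO replicate 3 was the lowest Mettl3KO library each time. Mrpl16 had a log2 change of 0.62 ± 0.20 (adjusted p = 0.058) and Mrpl46 of 0.68 ± 0.27 (adjusted p = 0.12). At the other end, Mrpl1, a large-subunit protein next to the tRNA exit site, had −0.86 ± 0.28 (adjusted p = 0.062).

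Mrpl12 and Mrps12 had log2 changes of 0.26 ± 0.25 (adjusted p = 0.54) and 0.32 ± 0.30 (adjusted p = 0.53) in MPP1. Mrpl3, Mrpl11, Mrps18a, Mrps18b, Mrps18c, Mrps35 and Mrps36 lay between −0.50 and −0.20, none of them called. In the same comparison the 77 tested cytosolic ribosomal protein genes had a median log2 change of −0.56, with 0 called. The 82 respiratory chain genes had a median of −0.27, with 0 called higher and 3 lower. Regulators were among the called genes: Esrra, a nuclear receptor for mitochondrial genes, was higher (1.08 ± 0.26, adjusted p = 0.014) and Ppargc1a, a coactivator of mitochondrial biogenesis, was lower (−4.22 ± 1.07, adjusted p = 0.020). Of the assembly genes, Ddx28 (1.15 ± 0.21, adjusted p = 0.0022) and Mterf4 (0.84, adjusted p = 0.027) were higher.

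The MPP1 result turned on the libraries that stood apart. Without Mettl3KO replicate 2, the library rich in neutrophil markers, 4 members were called higher and 4 lower and the median log2 change was −0.39. Without Mettl3KO replicate 3, 5 were called higher and 0 lower and the median was 0.04. Without Mettl3KO replicate 1, 2 were called higher and 1 lower, and DESeq2 called 4 higher and 2 lower. Without WT replicate 2 the count was 1, and with the 6 MPP1 libraries fitted alone it was 0.

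In MPP4, 0 members were called in either direction, against 1.03% of all genes called higher and 2.1% called lower. edgeR gave 0 members at an unadjusted p under 0.05, and DESeq2 also called 0. The median log2 change was 0.06, against −0.01 over all genes, with 48 positive and 29 negative. The Mettl3KO libraries lay wholly above for 10 members, against 13.9% of all genes, and wholly below for 1, against 14.4%. The genes called in the other populations had 0.37 ± 0.20 for Mrpl16 (adjusted p = 0.38), 0.11 ± 0.22 for Mrps34 (adjusted p = 0.89) and 0.43 ± 0.27 for Mrpl43 (adjusted p = 0.47). Mrpl46 had 0.33 ± 0.27 (adjusted p = 0.62) and Mrpl19 had 0.24 ± 0.19 (adjusted p = 0.61). Mrpl12, Mrps12, Mrpl3, Mrpl11, Mrps18a, Mrps18b, Mrps18c, Mrps35 and Mrps36 lay between −0.17 and 0.34. No gene of the other mitochondrial translation lists was called.

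**Figure D2:**
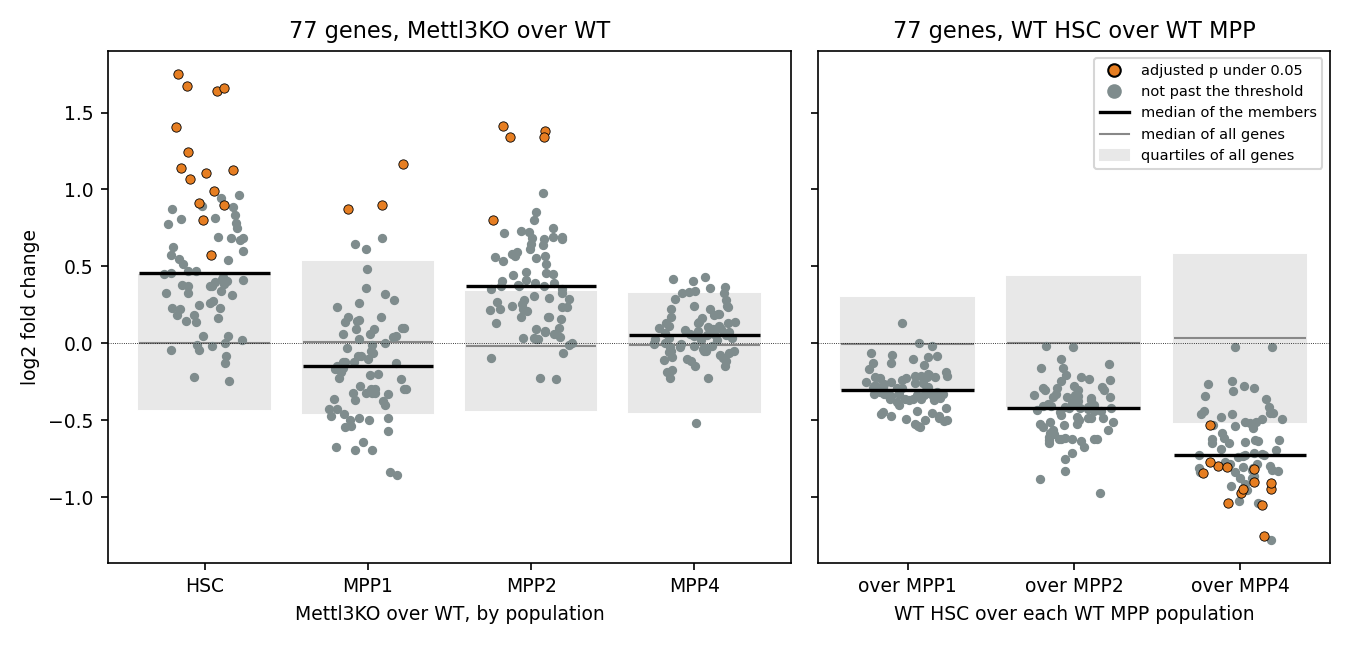
Log2 fold changes (y axis) of the 77 genes in each bulk comparison, one point per gene, orange where the adjusted p is under 0.05 and grey otherwise; the black line is the members' median and the grey box and line are the quartiles and median of all tested genes. The members' median is 0.46 in HSC, −0.14 in MPP1, 0.37 in MPP2 and 0.06 in MPP4 for Mettl3KO over WT, and −0.73 for WT HSC over WT MPP4.

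Whether the change in HSC differed from that in the other populations was tested as an interaction. Between HSC and MPP4, 2 members differed, Mrps34 with a difference in log2 change of 1.56 ± 0.31 (adjusted p = 0.014) and Mrpl16 with 1.29 ± 0.28 (adjusted p = 0.023), both larger in HSC. Over all genes 0.939% were called larger in HSC and 0.611% smaller. Mrpl43 (1.32 ± 0.39, adjusted p = 0.091), Mrpl46 (1.31 ± 0.39, adjusted p = 0.092) and Mrpl19 (0.89 ± 0.27, adjusted p = 0.10) had similar differences that were not called. The median difference over the members was 0.47, against 0.06 over all genes, and 67 of the 77 were positive. The call of Mrps34 was lost without HSC Mettl3KO replicate 3 (adjusted p = 0.053) and without MPP4 Mettl3KO replicate 3 (adjusted p = 0.056). The call of Mrpl16 was lost without any 1 of 7 of the 12 libraries.

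Between HSC and MPP1, 0 members differed, against 0.00643% of all genes called larger in HSC and 0.0322% called smaller, although all 77 differences were positive with a median of 0.71. At an unadjusted p under 0.05, 17 were larger in HSC and 0 smaller. Mrpl16 had a difference of 1.04 ± 0.28 (adjusted p = 0.31). Between HSC and MPP2, 0 members differed, against 0% of all genes called larger in HSC and 0.00643% called smaller, with a median difference of 0.15, and 0 members passed an unadjusted p of 0.05. DESeq2 called 0 members in both comparisons.

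Across the 4 populations the genes called in HSC kept different sizes of change. Mrpl43 had log2 changes of 1.75, 1.17, 1.41 and 0.43 in HSC, MPP1, MPP2 and MPP4. Mrps34 had 1.67, 0.90, 1.34 and 0.11, and Mrpl16 had 1.66, 0.62, 1.34 and 0.37. Each population has its own Mettl3KO and WT libraries. In Mettl3KO cells Mrpl16 averaged 99.9 ± 24.2 CPM in HSC, 59.1 ± 6.62 in MPP1, 123 ± 18.9 in MPP2 and 71.6 ± 11.8 in MPP4 (SD, n = 3 each). In WT cells it averaged 31.6 ± 7.60, 38.5 ± 2.67, 48.6 ± 5.47 and 55.6 ± 2.98 CPM in the same order, with HSC lowest.

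**Figure D3:**
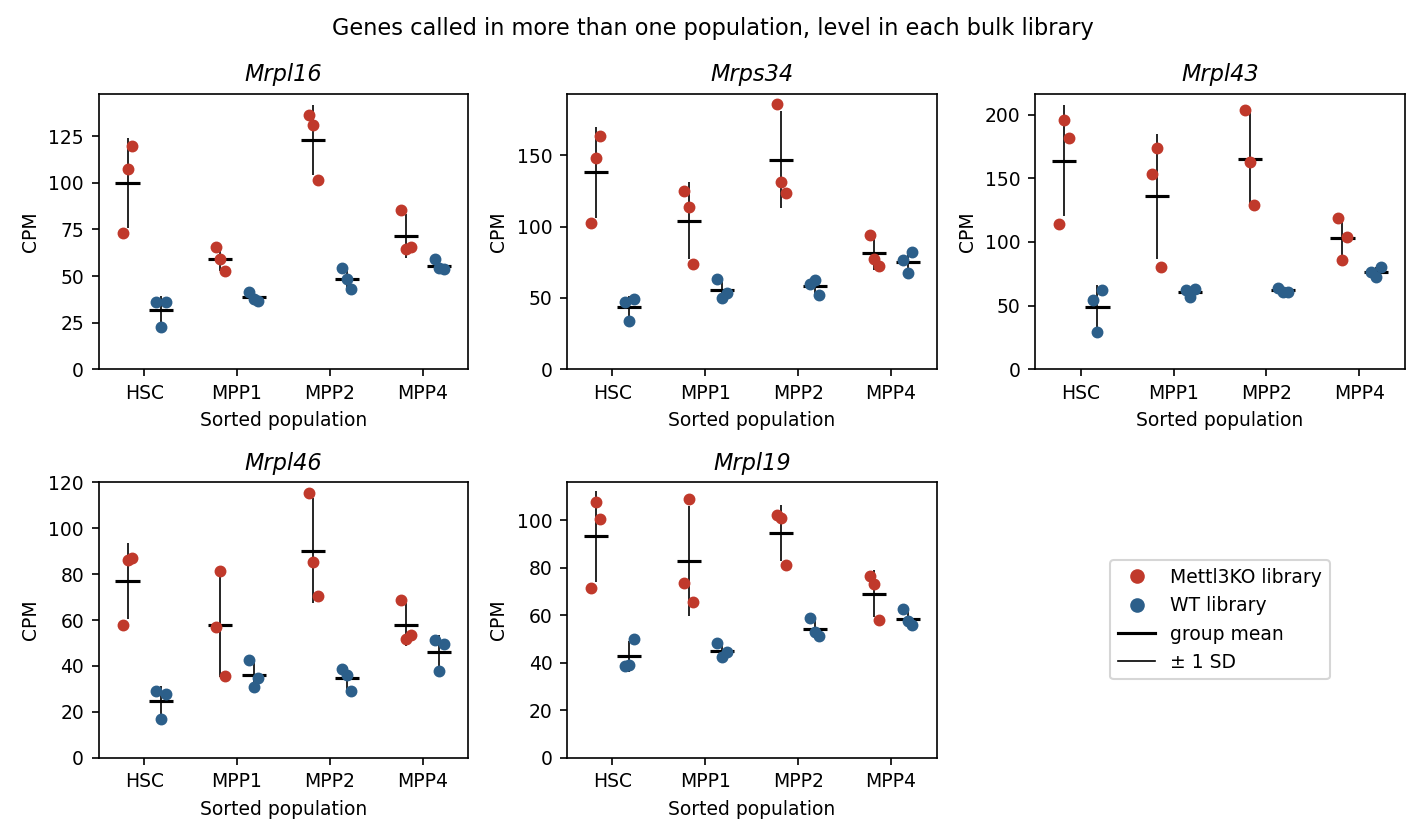
Levels (CPM, y axis) of the genes called higher in Mettl3KO in more than 1 bulk population, with Mettl3KO (red) left of WT (blue) in HSC, MPP1, MPP2 and MPP4; points are libraries. Mrpl16, for example, lies at 72.9 to 119 CPM in Mettl3KO HSC and 22.9 to 36.1 CPM in WT HSC.

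The WT populations were then compared with each other, which shows the levels these genes have along early differentiation. In WT HSC, 14 members were called lower and 0 higher than in WT MPP4, against 6.65% of all genes called lower and 5.4% called higher. All 77 had a negative sign, with a median log2 change of −0.73, against 0.04 over all genes, and 61 were lower at an unadjusted p under 0.05. The HSC libraries lay wholly below the MPP4 libraries for 60 members, against 21.3% of all genes, and wholly above for 0, against 20.6%. The called genes were 7 of 29 large-subunit genes with a bacterial counterpart, 3 of 21 without one, 3 of 16 small-subunit genes with a bacterial counterpart and 1 of 10 without one.

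Mrpl15 had 106, 71.7 and 105 CPM in WT HSC, against 194, 147 and 166 CPM in WT MPP4 (log2 change −0.84 ± 0.17, adjusted p = 0.0035). Mrpl18, a large-subunit protein that contacts the structural RNA of the central protuberance, had 61.6, 37.3 and 64.2 CPM in WT HSC, against 141, 118 and 128 CPM in WT MPP4 (−1.25 ± 0.30, adjusted p = 0.012). Mrpl16 had 35.9, 22.9 and 36.1 CPM in WT HSC, against 59.0, 54.1 and 53.6 CPM in WT MPP4 (−0.81 ± 0.20, adjusted p = 0.013). All HSC libraries were below all MPP4 libraries for these 3 genes. Mrps18a had 47.9, 25.2 and 41.8 CPM in WT HSC, against 94.1, 67.8 and 73.8 CPM in WT MPP4 (−1.04 ± 0.27, adjusted p = 0.017). Mrps34 had 47.0, 33.9 and 49.0 CPM in WT HSC, against 76.3, 67.5 and 82.0 CPM in WT MPP4 (−0.80 ± 0.22, adjusted p = 0.024). Mrpl12 had 63.2, 30.6 and 58.4 CPM in WT HSC, against 108, 94.5 and 83.1 CPM in WT MPP4 (−0.91 ± 0.25, adjusted p = 0.025). The groups of these genes did not overlap either.

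Mrps11 (−0.95 ± 0.27, adjusted p = 0.031), Mrps14 (−0.95 ± 0.28, adjusted p = 0.035) and Mrpl11 (−0.80 ± 0.24, adjusted p = 0.039) were also called lower in WT HSC. The other 5 were Mrpl44, Mrpl46, Mrpl32, Mrpl20 and Mrps28. Mrps12 (−0.80, adjusted p = 0.084), Mrps18b (−0.63, adjusted p = 0.12), Mrps18c (−1.04, adjusted p = 0.075), Mrps35 (−0.64, adjusted p = 0.15) and Mrps36 (−0.95, adjusted p = 0.059) were not called. Mrpl3 had −0.24 (adjusted p = 0.41) and Mrps2, at −0.02, was the nearest to 0. The comparison of Mettl3KO with WT HSC and that of WT HSC with WT MPP4 share the WT HSC libraries, so their changes are not independent. Side by side, Mrpl16 had 1.66 in the first and −0.81 in the second, Mrpl12 had 0.99 and −0.91, and Mrps2 had 0.91 and −0.02.

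How many of these calls held depended on the library left out. The count was 11 without WT HSC replicate 1 and 13 without WT HSC replicate 3. Without WT HSC replicate 2 the count was 1, Mrpl15, and the members' median was −0.51. Without WT MPP4 replicate 1 the count was 2, without replicate 3 it was 5, and without replicate 2 it was 7. With trends of gene length and GC content removed, the count was 10 and the members' median was −0.46, nearer 0 than the −0.73 of the main fit. In the same comparison 24 of 82 nuclear genes of the respiratory chain were called lower and 0 higher, with a median log2 change of −0.90. Of 77 cytosolic ribosomal protein genes 6 were called lower and 0 higher, a share near the 6.65% of all genes called lower, with a median of −0.78.

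Against WT MPP2, edgeR called 0 members in WT HSC and DESeq2 called 3 lower, against 1.4% of all genes called higher and 2.51% called lower. All 77 were negative, with a median of −0.42, and 14 were lower at an unadjusted p under 0.05. The HSC libraries lay wholly below for 43 members, against 18.3% of all genes, and wholly above for 0, against 15.3%. Against WT MPP1, edgeR and DESeq2 called 0 members, against 0.00643% of all genes called higher and 0.0193% called lower. There 75 were negative, with a median of −0.31, and 1 was lower at an unadjusted p under 0.05. The HSC libraries lay wholly below for 14 members, against 7.63% of all genes, and wholly above for 0, against 7.19%. Both medians depended on WT HSC replicate 2. Without it they were −0.24 against MPP2 and −0.08 against MPP1.

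The single-cell data came from LK cells, a gate that is mostly committed progenitors. The 6 libraries held 28546967 to 44159208 UMIs in the 24396 cells kept, with a median of 5945 to 10490 UMIs per cell in a library. Of 24389 distinct barcodes, 303 occurred in more than 1 library. Counts were summed per library before testing. Mrpl53 was filtered out for low counts, which left 76 members among 13071 genes tested.

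Summed over all LK cells, 6 members were called higher and 1 lower in Mettl3KO, against 13.7% of all genes called higher and 8.72% called lower. The share of members called was thus below that of all genes. The median log2 change was 0.00, as it was over all genes, with 39 positive and 37 negative. The Mettl3KO libraries lay wholly above for 16 members, against 22% of all genes, and wholly below for 6, against 19.5%. The members took 1.04% ± 0.011 of UMIs in Mettl3KO libraries and 0.968% ± 0.068 in WT libraries (SD, n = 3 each). By replicate the shares were 1.034%, 1.055% and 1.038% in Mettl3KO, against 1.012%, 1.002% and 0.889% in WT. WT replicate 3 held 1046 of the 1281 cells named neutrophil-like below, the class with the lowest share of members. The part of these cells in the difference was not tested.

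The genes called in sorted HSC headed the list. Mrpl43 had 172, 140 and 158 CPM in Mettl3KO LK cells, against 104, 98.7 and 89.1 CPM in WT LK cells (log2 change 0.69 ± 0.09, adjusted p = 0.0022). Mrpl46 had 96.2, 87.3 and 83.8 CPM in Mettl3KO LK cells, against 62.3, 65.4 and 62.6 CPM in WT LK cells (0.49 ± 0.07, adjusted p = 0.0024). Mrps34 had 150, 140 and 152 CPM in Mettl3KO LK cells, against 115, 117 and 105 CPM in WT LK cells (0.39 ± 0.07, adjusted p = 0.0052). For these genes no library of 1 genotype reached the other. Mrpl16 had 87.0, 86.4 and 81.0 CPM in Mettl3KO LK cells, against 66.1, 69.8 and 61.5 CPM in WT LK cells (0.37 ± 0.07, adjusted p = 0.0067).

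Mrps6, a small-subunit protein with a bacterial counterpart, had 33.4, 32.9 and 33.5 CPM in Mettl3KO LK cells, against 25.3, 25.3 and 20.02 CPM in WT LK cells (0.50 ± 0.10, adjusted p = 0.0093). Mrps23, of the small subunit, had 85.2, 81.8 and 86.3 CPM in Mettl3KO LK cells, against 70.6, 73.0 and 61.9 CPM in WT LK cells (0.30 ± 0.07, adjusted p = 0.022). Mrpl33, a large-subunit protein with a bacterial counterpart, was the lower one, with 481, 478 and 493 CPM in Mettl3KO LK cells, against 585, 536 and 575 CPM in WT LK cells (−0.22 ± 0.07, adjusted p = 0.047). Its call was lost when any 1 of the 6 libraries was left out. The genes called both in sorted HSC and here numbered 5, which is 33.3% of the 15 and 83.3% of the 6. The libraries differ, and whether they share mice is not stated.

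Mrpl12 (0.16, adjusted p = 0.24), Mrps12 (0.16, adjusted p = 0.18), Mrpl3 (0.03, adjusted p = 0.81), Mrpl11 (0.04, adjusted p = 0.73), Mrps18a (0.14, adjusted p = 0.20) and Mrps18b (0.03, adjusted p = 0.82) were not called in LK cells. Nor were Mrps18c (−0.15, adjusted p = 0.11), Mrps35 (−0.02, adjusted p = 0.86) and Mrps36 (−0.26 ± 0.10, adjusted p = 0.097). Of 6 other ribosome subunits, Dap3, a GTP-binding protein of the small subunit, was called lower (−0.35 ± 0.09, adjusted p = 0.025). Of 22 assembly genes 3 were called higher, among them Mterf4 (0.60 ± 0.08), and 3 lower.

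LK cells are a mixture whose make-up differed between genotypes, so the sums were also made within classes of cells. Cells were clustered without the member genes in 26 clusters, 19 of which took a class name from marker genes, and 4750 cells were in clusters without a name. In 6 classes every library had at least 50 cells. Doublets marked by the caller, 248 cells or 1.017%, were kept.

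**Figure D4:**
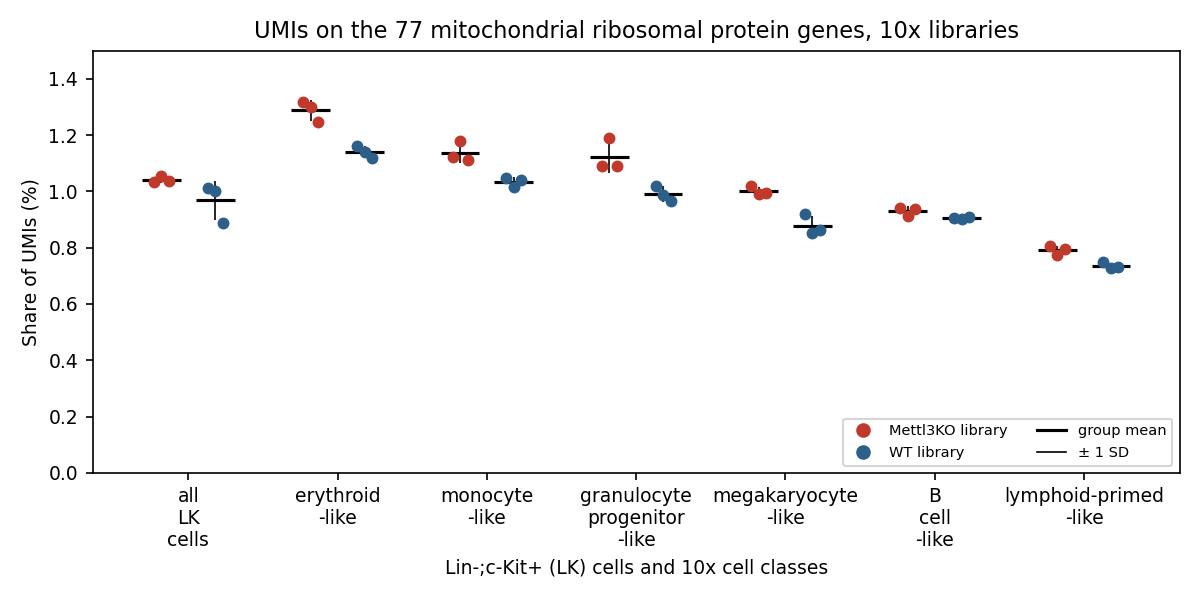
Share of UMIs (%, y axis) taken by the member genes in all LK cells and in each class of cells, with Mettl3KO (red) left of WT (blue); points are libraries. The share is highest in erythroid-like cells, at a mean of 1.29% in Mettl3KO and 1.14% in WT, and lower in lymphoid-primed-like cells, at 0.792% in Mettl3KO and 0.735% in WT.

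Erythroid-like cells, which make haem in their mitochondria, had the highest share of the classes, 1.29% ± 0.037 in Mettl3KO and 1.14% ± 0.021 in WT (SD, n = 3 each). There 9 members were called higher and 0 lower, against 3.5% of all genes called higher and 2.22% called lower. Members had a median log2 change of 0.17, against 0.00 over all genes, and 67 of 76 were positive. The Mettl3KO libraries lay wholly above for 43 members, against 14.9% of all genes, and wholly below for 1, against 12.4%.

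Mrpl20, a large-subunit protein with a bacterial counterpart, had 359, 359 and 368 CPM in Mettl3KO erythroid-like cells, against 283, 284 and 246 CPM in WT (log2 change 0.42 ± 0.08, adjusted p = 0.0092). Mrps34 had 155, 143 and 153 CPM in Mettl3KO erythroid-like cells, against 124, 116 and 117 CPM in WT (0.34 ± 0.08, adjusted p = 0.022). Mrpl12 had 430, 415 and 420 CPM in Mettl3KO erythroid-like cells, against 353, 339 and 307 CPM in WT (0.34 ± 0.08, adjusted p = 0.023). The other 6 were Mrps18b, Mrps6, Mrps16, Mrpl17, Mrpl15 and Mrpl34, with log2 changes of 0.28 to 0.44. Mrpl43 was not called (0.22, adjusted p = 0.17). The count was 0 without Mettl3KO replicate 1, 1 without Mettl3KO replicate 2, 5 without Mettl3KO replicate 3, 2 without WT replicate 2 and 2 without WT replicate 3.

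Megakaryocyte-like cells had the most calls, with 29 members higher and 3 lower, against 17.5% of all genes called higher and 14.2% called lower. Their median log2 change was 0.19, against 0.00 over all genes, with 46 positive and 30 negative. The Mettl3KO libraries lay wholly above for 36 members, against 23.3% of all genes, and wholly below for 12, against 20.3%. Different clusters held this class in the genotypes. Cluster 12, led by Gp5, Gchfr and F2r, had 901 Mettl3KO and 4 WT cells, and cluster 17, led by Pf4, Gp1bb and Sdpr, had 45 Mettl3KO and 472 WT cells. Genotype and cluster therefore cannot be told apart here. At the lower clustering resolution no cluster took the megakaryocyte name. Gp5, Nupr1 and Tcf15 were then among the leading genes of an unnamed cluster, beside Ltb and Mycn. It scored best on the HSC/MPP markers and held 3610 cells, with 6, 5 and 7 from the WT libraries. Pf4, Gp1bb and Sdpr were then among the leading genes of the basophil/mast-like cluster. Whether the calls below belong to megakaryocyte-like cells was not tested.

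Within this class Mrpl43 had 318, 276 and 320 CPM in Mettl3KO cells, against 77.7, 88.5 and 76.3 CPM in WT cells (log2 change 1.92 ± 0.11, adjusted p = 3.0e-11). Mrps34 had 241, 250 and 261 CPM in Mettl3KO cells, against 79.4, 100 and 69.7 CPM in WT cells (1.59 ± 0.12, adjusted p = 1.3e-09). Mrpl46 had 165, 155 and 165 CPM in Mettl3KO cells, against 55.8, 64.1 and 52.7 CPM in WT cells (1.49 ± 0.12, adjusted p = 4.3e-09). No value of 1 genotype came near the other for these genes. Mrpl16 (0.71 ± 0.13, adjusted p = 0.00029), Mrpl12 (0.43, adjusted p = 0.0071), Mrps12 (0.57, adjusted p = 0.00027), Mrpl3 (0.40, adjusted p = 0.025) and Mrpl11 (0.34, adjusted p = 0.045) were higher too. The 3 lower members were Mrpl1 (−0.51, adjusted p = 0.017), Mrpl42 and Mrpl24. Of the 15 genes called in sorted HSC, 14 were called higher here (93.3% of the 15 and 48.3% of the 29), all but Mrpl44.

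In lymphoid-primed-like cells, 2 members were called higher and 0 lower, against 1.69% of all genes called higher and 1.55% called lower. They were Mrps23, with 89.7, 90.04 and 75.2 CPM in Mettl3KO cells, against 50.6, 54.3 and 62.5 CPM in WT cells (log2 change 0.62 ± 0.15, adjusted p = 0.027), and Mrpl20 (0.45, adjusted p = 0.048). All Mettl3KO libraries were above all WT libraries for 13 members, against 10.1% of all genes, and below them for 3, against 11.2%. The count of calls was 0 without any 1 of 4 of the libraries and 1 without WT replicate 3. An HSC/MPP-like cluster, led by Ltb, Mycn and Mecom, had 1836 Mettl3KO and 7 WT cells and could not be compared alone.

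Pooled with it, a choice made after seeing the data, 27 members were called higher and 1 lower, against 12.2% of all genes called higher and 8.97% called lower. The median log2 change was 0.20, against 0.00 over all genes. Mrpl43 had 278, 231 and 294 CPM in Mettl3KO cells of the pooled class, against 96.7, 93.3 and 86.8 CPM in WT cells (1.54 ± 0.11, adjusted p = 2.3e-07). Mrpl16 had 116, 128 and 119 CPM in Mettl3KO cells, against 41.6, 44.8 and 49.6 CPM in WT cells (1.42 ± 0.12, adjusted p = 9.3e-07). The groups were far apart for both. Mrpl46 (1.28 ± 0.12), Mrps34 (1.03 ± 0.11) and Mrpl19 (0.66 ± 0.11) were higher and Mrpl1 was lower (−0.43, adjusted p = 0.024). Again 14 of the 15 HSC genes were called (93.3% of the 15 and 51.9% of the 27). The Mettl3KO cells of this pool came mostly from 1 cluster and the WT cells from the other, so genotype and cluster cannot be told apart.

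In monocyte-like cells 2 members were called higher and 0 lower, against 0.616% of all genes called higher and 0.447% called lower. They were Mrpl20 (0.33, adjusted p = 0.041) and Mrpl12 (0.33 ± 0.07, adjusted p = 0.048), and both calls were lost when any 1 of the 6 libraries was left out. The median log2 change was 0.15 with 74 of 76 positive, and the Mettl3KO libraries lay wholly above for 42 members, against 10.4% of all genes, and wholly below for 0, against 9.74%. In granulocyte-progenitor-like cells edgeR called 0 members, against 0.106% of all genes called higher and 0.095% called lower, with 30 higher at an unadjusted p under 0.05. DESeq2 called 2. The median was 0.17 with 71 of 76 positive, and 37 members lay wholly above, against 10.5% of all genes, and 0 wholly below, against 9.81%. In B-cell-like cells edgeR called 0 members, against 0.212% of all genes called higher and 0.34% called lower, with a median of 0.07 and 6 higher at an unadjusted p under 0.05. DESeq2 called 0 there as well. In that class 15 members lay wholly above, against 7.79% of all genes, and 2 wholly below, against 7.99%.

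**Figure D5:**
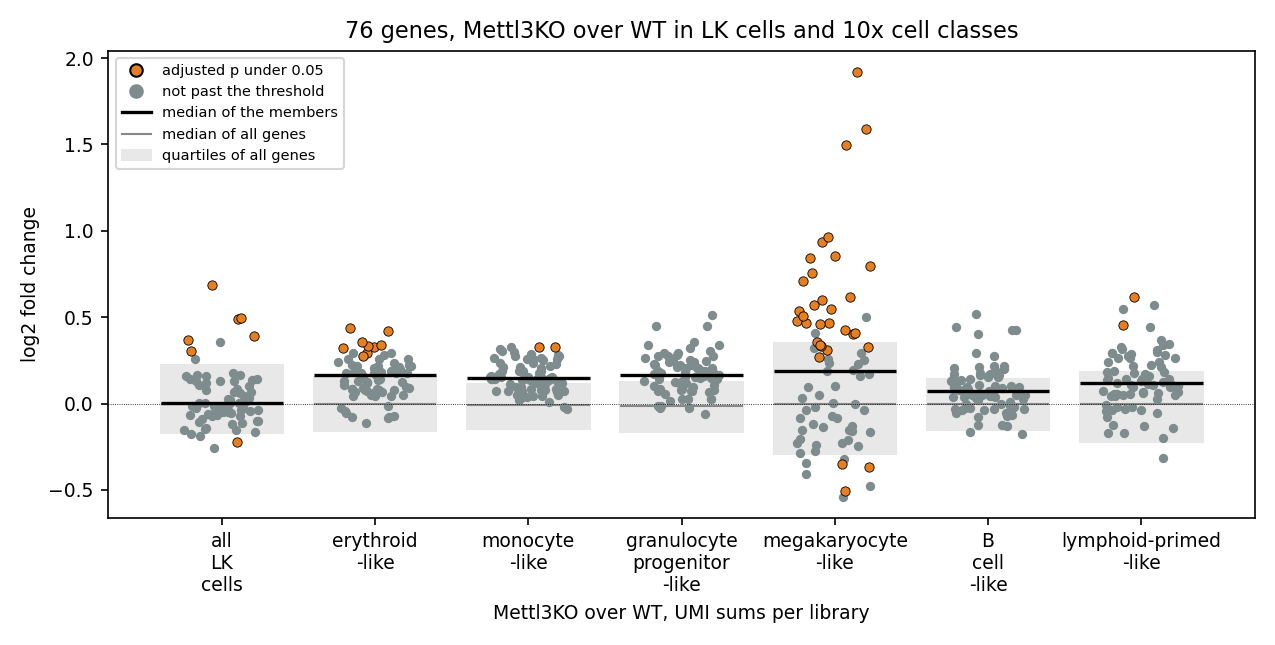
Log2 fold changes (Mettl3KO over WT, y axis) of the 76 tested genes in all LK cells and in each class, one point per gene, orange where the adjusted p is under 0.05 and grey otherwise; the black line is the members' median and the grey box and line are the quartiles and median of all tested genes. In the megakaryocyte-like class Mrpl43, Mrps34 and Mrpl46 reach 1.92, 1.59 and 1.49, while the medians of all classes lie between 0.07 and 0.19.

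The 13 protein-coding genes of mitochondrial DNA, whose mRNAs this ribosome reads, had a lower mean share in Mettl3KO than in WT over all LK cells and in each of the 6 classes compared, with overlapping libraries in granulocyte-progenitor-like, megakaryocyte-like and monocyte-like cells. In neutrophil-like cells, with 2 libraries of each genotype, the mean was higher, at 1.68% in Mettl3KO and 1.47% in WT. The genes made up 3.27% ± 0.108 of UMIs in Mettl3KO LK cells and 3.58% ± 0.0873 in WT LK cells (SD, n = 3 each). In erythroid-like cells they made up 3.20% ± 0.132 in Mettl3KO and 3.71% ± 0.435 in WT. In megakaryocyte-like cells they made up 2.79% ± 0.190 in Mettl3KO and 3.20% ± 0.230 in WT. Cells with over 10% mitochondrial UMIs had been removed, which bounds these shares.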

How the data were processed

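The authors deposited gene counts for the 24 bulk RNA-seq libraries and, for the 6 droplet libraries, UMI counts by cell, and both were used unchanged. The bulk table is named after FPKM but holds whole-number counts that sum to a different total in each library, so it was tested as counts. Per the submitters' processing notes, the tools were Cell Ranger 2.2, TopHat and Bowtie and the named builds were GRCh37 and mm10, with no role given to each. Strand setting and annotation: not given in the sources used here. The names of 27 bulk genes, no member among them, had been turned into dates.

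Bulk counts were fitted in edgeR 4.0.16 (R 4.3.3) with TMM scaling, filterByExpr and the quasi-likelihood test over all 8 groups (16 residual degrees of freedom), with Benjamini-Hochberg adjustment over 15545 genes and a threshold of 0.05. The 297 cells with over 10% mitochondrial UMIs were removed, and 24396 were kept. Cells were clustered in scanpy 1.11.5 (Python 3.11.15, leidenalg 0.10.2, 30 components, 20 neighbours, resolution 1), and clusters were called X-like from marker genes with at least 3 markers up 2-fold. UMIs were summed per library and class and tested as above. Replicates come from different mice per the labels, so p-values measure the spread between mice and libraries. Sequences and windows came from RefSeq annotation of GRCm38, transcripts from GENCODE. The fitting scripts were tested on simulated data. Alternatives were DESeq2 1.42.0, RLE scaling, no filter, length and GC trends removed, limma 3.58.1 voom with quality weights, a replicate block, fits of the 6 libraries alone, each library left out and, for cells, no mitochondrial limit, marked doublets removed and a clustering resolution of 0.6.

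Named genes were, per bulk and LK comparison, the called members, at most 8 higher and 8 lower by smallest adjusted p. Mrpl12, Mrps12, Mrpl3, Mrps18a, Mrps18b, Mrps18c, Mrpl11, Mrps35 and Mrps36 were named in every such comparison, and other lists by at most 4 called genes. Further called members are listed by name or range. Members and lists were chosen with earlier results of these data known.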

Additional observations from a re-analysis of the deposited data

Results flagged for a closer look

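The change with genotype differed between HSC and MPP4 by a test of the difference itself for 2 members. For Mrps34 the log2 change in HSC minus that in MPP4 was 1.565 ± 0.31 (edgeR interaction, adjusted p = 0.014). Mrps34 had 102, 148 and 164 CPM in Mettl3KO HSC, against 47.0, 33.9 and 49.0 CPM in WT HSC, and 94.1, 76.99 and 72.3 CPM in Mettl3KO MPP4, against 76.3, 67.5 and 82.0 CPM in WT MPP4. For Mrpl16 the difference was 1.2939 ± 0.28 (adjusted p = 0.023). Mrpl16 had 72.9, 107 and 119 CPM in Mettl3KO HSC, against 35.9, 22.9 and 36.1 CPM in WT HSC, and 85.2, 64.3 and 65.3 CPM in Mettl3KO MPP4, against 59.0, 54.1 and 53.6 CPM in WT MPP4. For Mrps34 the HSC groups did not overlap and the MPP4 groups did, and for Mrpl16 neither population's groups overlapped.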

How the results depend on the processing

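Single genes were followed under the alternatives only among the members. They were the called members, at most 8 per direction in a bulk or LK comparison and 4 in a class. The 9 members named in every bulk and LK comparison were followed there too. No called gene among them reversed direction under any alternative run. Other named genes, such as Ddx28 or Mrpl14 in HSC, were not followed in this way. Of the followed genes' values under alternatives, 1886 kept direction and side of the threshold, 124 lost the call, 23 gained it and 61, none of them called, changed sign. The cause of these moves was not tested. With DESeq2 the count of called members was 6 in MPP1 (4 higher and 2 lower), 9 in MPP2, 3 for WT HSC against WT MPP2, 34 for WT HSC against WT MPP4, 6 for the HSC minus MPP4 difference, 2 in granulocyte-progenitor-like, 0 in lymphoid-primed-like and 21 in megakaryocyte-like cells. With length and GC trends removed it was 5 in MPP1, 9 in MPP2, 1 in MPP4, 2 for WT HSC against WT MPP2 and 4 for the HSC minus MPP4 difference. With library quality weights it was 27 in HSC, 21 in MPP2, 2 for WT HSC against WT MPP2, 49 for WT HSC against WT MPP4 and 12 for the HSC minus MPP4 difference. With only the 6 libraries compared it was 6 in HSC, 0 in MPP1, 8 in MPP2 and 1 for WT HSC against WT MPP2. Same-numbered Mettl3KO and WT libraries did not deviate together (r of −0.12 to 0.05 in bulk and −0.28 to −0.06 in LK), although 1 HSC and 1 MPP4 pair correlated best with their own number. All 9 pairs of WT HSC with WT MPP1, MPP2 or MPP4 libraries did so (r of 0.05 to 0.14), a hint from the data that the labels do not give. No comparison had every pair over 0.1, so the numbers were not taken to pair the samples. With a replicate block the count was 15 in HSC, 11 for WT HSC against WT MPP4, 5 in erythroid-like, 1 in lymphoid-primed-like and 0 in monocyte-like cells. With the replicate block and length and GC trends removed it was 23 in HSC, 6 in MPP1, 11 in MPP2, 2 for WT HSC against WT MPP2, 9 for WT HSC against WT MPP4 and 4 for the HSC minus MPP4 difference. At a clustering resolution of 0.6 it was 15 in lymphoid-primed-like and 1 in monocyte-like cells. That setting was not run for granulocyte-progenitor-like cells, which had too few cells in 1 library. Nor was it run for megakaryocyte-like cells, because no cluster took that name. Pooling the lymphoid-primed-like class with the HSC/MPP-like cluster, chosen after seeing the data, gave 28. Leaving out 1 library gave 8 to 25 in HSC, 1 to 8 in MPP1, 2 to 5 in MPP2, 1 to 13 for WT HSC against WT MPP4, 0 to 10 for the HSC minus MPP4 difference, 5 to 7 in LK, 0 to 7 in erythroid-like, 0 to 2 in lymphoid-primed-like, 21 to 33 in megakaryocyte-like and 0 to 0 in monocyte-like cells.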

Other observations

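Some classes of LK cells were too small in at least 1 library to be compared. In neutrophil-like cells the members took 0.431% of UMIs in Mettl3KO and 0.401% in WT, as means of the 2 libraries of each genotype with enough cells, the lowest shares of any class. In dendritic-like cells they took 0.687% in 3 Mettl3KO libraries and 0.715% in 2 WT libraries. In the HSC/MPP-like cluster they took 0.865% ± 0.0223 in Mettl3KO cells (SD, n = 3), and basophil-like and mast-like cells had 0.768% ± 0.0211 in WT cells (SD, n = 3).

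The letters GGACT had a median density of 1.431 per kilobase in the principal transcripts of the 15 members called in HSC. It was 0.891 per kilobase in the 62 not called, and the median transcript lengths were 1332 and 1251.5 bases. This is a description of the sequences, and no m6A measurement was used here.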
